A study of Mus musculus with 9 samples.

Results

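The genes described here are 10 components of inflammasomes and the inflammatory caspases, chosen by name from the rows of a table of 16755 genes: the sensors Nlrp3, Aim2 and Naip2, the adaptor Pycard, the caspases Casp1, Casp4 and Casp12, the pore protein Gsdmd, and the cytokines Il1b and Il18. All 10 were found in the table. Polyadenylated RNA was sequenced from mouse liver in 3 groups of 3 C57BL/6 mice. Scd2f/f TAL came from mice with a floxed Scd2 and no Cre, injected when 2 weeks old with 10 mg/kg of the liver carcinogen DEN and then fed WAD, a Western alcohol diet, starting at 6 weeks and lasting 4 months by the labels (the study's text gives a longer feeding). Scd2f/f;CC TAL received the same DEN and WAD but also carried Col1a1-Cre, whose Cre recombinase is under the Col1a1 promoter, active in hepatic stellate cells (HSC) and portal fibroblasts, so deletion should be largely limited to those cells. Whole liver RNA does not show in which cells Scd2 was lost. Scd2f/f control was untreated liver of mice with the same floxed Scd2 and no Cre. The labels call the tissue liver. The study's text calls the treated tissue TAL, tumor-adjacent liver, in its results, and NTL in its RNA methods. By that text, TAL held tumors of microscopic size but none that could be seen by eye.

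Inflammasomes are assemblies in the cytosol of macrophages and other cells that form when a sensor detects a microbial or danger signal. The sensor recruits the adaptor ASC, encoded by Pycard, which gathers and activates caspase-1. Caspase-1 cuts the precursors of IL-1beta and IL-18 and the pore-forming protein gasdermin D, which lets the cytokines out and can kill the cell by pyroptosis. Mouse caspase-11, encoded by Casp4, binds bacterial lipopolysaccharide in the cytosol and cuts gasdermin D directly. In liver, the NLRP3 inflammasome is studied mostly in Kupffer cells and recruited macrophages, in steatohepatitis and fibrosis. Transcript levels do not measure assembly, cleavage or release, which were not measured here.

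The table gives 1 value per gene and group, the authors' mean of normalized read counts. Single mice were not analysed here. The authors' own tests were not used, so the ratios are given with no spread between mice, no test and no p-value, and a ratio past a limit may still lie within the spread between mice. A ratio of at least 2 between group means is called 2-fold higher or lower throughout. The 3 comparisons share groups, so they are not independent of each other. Across all genes the median mean was 3.96 in control, 4.22 in Scd2f/f TAL and 4.01 in TAL of Scd2f/f;CC mice. The upper quartile lay between 15.4 and 15.5, and no gene was at 0. Scd2, the targeted gene, had a mean of 2.46 in control, 6.47 in Scd2f/f TAL and 1.87 in TAL of Scd2f/f;CC mice, and Col1a1, whose promoter drives Cre, had 4.69, 19.6 and 4.51.

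Of the 10 genes, 7 were at least 2-fold higher in Scd2f/f TAL than in control (Nlrp3, Casp1, Aim2, Casp4, Il1b, Pycard and Casp12), beside 9.37% of all 16755 genes. Naip2, Il18 and Gsdmd, with ratios of 1.93, 1.12 and 0.981, were not. The count was 2 with a limit of 3-fold and 0 with a pseudocount of 1, and 6 of the 7 genes had control means below 1. The median log2 ratio was 1.40 over the 10 genes and 0.0448 over all genes. Among the 12221 genes whose mean reached 1 in either group, 7.49% were 2-fold higher. Between the treated groups, 2 of the 10 genes, Casp4 and Casp12, were at least 2-fold lower in Scd2f/f;CC TAL than in Scd2f/f TAL, beside 4.07% of all genes, and none was 2-fold higher. That count was 1 with a pseudocount of 0.1, and 0 with one of 1 or with a limit of 3-fold. The other 8 genes had ratios from 0.776 to 1.34 in that comparison, and the median log2 ratio of all 10 was -0.33. Compared with control, 5 genes were still at least 2-fold higher in Scd2f/f;CC TAL (Nlrp3, Casp1, Pycard, Aim2 and Il1b), beside 6.41% of all genes, a count of 1 with a limit of 3-fold and 0 with a pseudocount of 1.

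**Figure D1:**
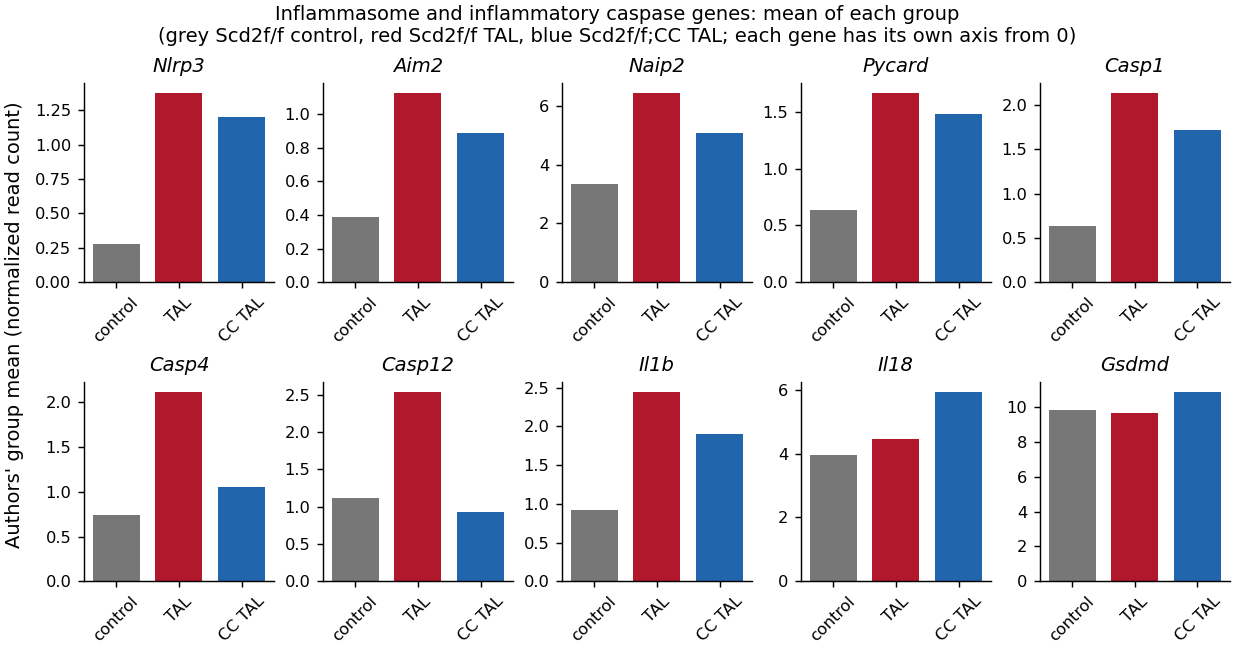
Mean of normalized read counts of each of the 10 genes (vertical axis, from 0, a separate axis for each gene) in Scd2f/f control (grey), Scd2f/f TAL (red) and Scd2f/f;CC TAL (blue). Bars are single means given by the authors, so there are no error bars; Casp12 is at 0.933 in Scd2f/f;CC TAL, below its control mean of 1.11, while Nlrp3 is at 1.20 against 0.277 in control.

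The 3 inflammatory caspase genes lie side by side in 1 orientation on chromosome 9, in GRCm38 coordinates of GENCODE M21: Casp1 from 5298517 to 5307265, Casp4 from 5308828 to 5336783 and Casp12 from 5345430 to 5373032, all on the plus strand. Casp1 and Casp4 are 1.56 kb apart and Casp4 and Casp12 8.65 kb, and the 3 genes span 74.5 kb. All 3 had higher means with DEN and WAD, but they differed in their ratios between the treated groups, so the 200 bases before the RefSeq start of each are shown here, 5′ to 3′ on the plus strand of GRCm38.p6, to let the neighbouring promoters be compared. Capitals mark the letters of 5 motifs searched on both strands, which are spelled out after the sequences.
Casp1, chr9:5298317-5298516: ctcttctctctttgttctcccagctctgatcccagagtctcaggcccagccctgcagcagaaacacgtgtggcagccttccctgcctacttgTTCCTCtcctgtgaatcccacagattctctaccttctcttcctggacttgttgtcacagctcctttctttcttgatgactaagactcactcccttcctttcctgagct
Casp4, chr9:5308649-5308848: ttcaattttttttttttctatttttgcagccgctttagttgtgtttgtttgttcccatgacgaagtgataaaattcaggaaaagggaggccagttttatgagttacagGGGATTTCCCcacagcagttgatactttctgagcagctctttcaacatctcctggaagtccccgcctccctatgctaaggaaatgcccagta
Casp12, chr9:5345276-5345475: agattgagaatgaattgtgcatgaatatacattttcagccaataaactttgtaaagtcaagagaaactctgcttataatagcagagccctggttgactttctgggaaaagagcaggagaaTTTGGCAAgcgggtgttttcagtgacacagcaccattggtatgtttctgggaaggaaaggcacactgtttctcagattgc
In these windows Casp1 had the PU.1 letters GAGGAA on the reverse strand from base -108, Casp4 had the NF-kappaB letters (GGGA and CC with any 4 bases between them) on both strands from base -92, and Casp12 had the C/EBP letters TTGCNNAA on the reverse strand from base -80. Each of the 3 promoters thus held the letters of a different one of these factors. Whether these letters have any part in the ratios of the 3 genes was not tested.

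Motif letters were counted in all RefSeq promoter windows of 300 bases (250 before the start and 50 after it). Windows were matched for 9 of the 10 genes, 11 windows in all, with none for Gsdmd. The NF-kappaB letters occurred in 20.7% of all 32851 windows and in those of Casp4 and Nlrp3. The PU.1 letters occurred in 28.3% of all windows and in those of Casp1, Nlrp3, Aim2 and Pycard. The C/EBP letters occurred in 10.8% of all windows and in those of Casp12 and Pycard. The interferon-response letters (GAAA and GAAA with any 2 bases between them, in 3.44% of all windows) and the AP-1 letters TGANTCA (7.81%) occurred in none of the 11 windows. These are matches of letters, and the data here do not bear on binding.

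Casp1 encodes the protease at the centre of the canonical inflammasome. Its mean was 0.636 in control, 2.14 in Scd2f/f TAL and 1.72 in TAL of Scd2f/f;CC mice. Casp1 was thus 3.36-fold higher in Scd2f/f TAL than in control (log2 1.75) and 0.804 times as high in Scd2f/f;CC TAL as in Scd2f/f TAL (log2 -0.32), and it remained 2.70-fold above control. Of the 3 neighbours, Casp1 had the largest ratio to control and the smallest difference between the treated groups.

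Casp4, the mouse caspase-11 gene, stood at 0.736 in control, 2.12 in Scd2f/f TAL and 1.05 in TAL of Scd2f/f;CC mice. It was 2.88-fold higher in Scd2f/f TAL than in control and 2.02-fold lower in Scd2f/f;CC TAL than in Scd2f/f TAL (log2 -1.01), a value just past the 2-fold limit. With a ratio of 1.43 to control in Scd2f/f;CC TAL, Casp4 lay closer to untreated liver than Casp1 did.

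Casp12 encodes a caspase related to caspase-1 that sits at the endoplasmic reticulum and has been studied in stress of that organelle. The mean of Casp12 was 1.11 in control, 2.54 in Scd2f/f TAL and 0.933 in TAL of Scd2f/f;CC mice. It was 2.29-fold higher in Scd2f/f TAL than in control and 2.72-fold lower in Scd2f/f;CC TAL than in Scd2f/f TAL (log2 -1.44). Casp12 had the lowest Scd2f/f;CC to Scd2f/f ratio of the 10 genes, and it was the only one of them whose mean in Scd2f/f;CC TAL was below that of control (ratio 0.841).

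Other genes in the table within 1 Mb of the caspase cluster were looked at after these values were seen. Aasdhppt, Kbtbd3 and Msantd4 lay at -989, -967 and -912 kb from the cluster, where a minus sign marks the Casp1 side. Their Scd2f/f;CC to Scd2f/f ratios were 1.02, 1.13 and 1.03. On the far side of Casp12, at 796 kb, lay Pdgfd, which encodes a PDGF ligand. Pdgfd had means of 1.18, 2.11 and 1.32 in control, Scd2f/f TAL and Scd2f/f;CC TAL, a ratio of 0.626 between the treated groups. The remaining 2, the pseudogene Gm7390 (-319 kb, ratio 0.369) and Ddi1 (890 kb, ratio 0.446), had means under 1 in every group. Pdgfd, Gm7390 and Ddi1 had lower means in Scd2f/f;CC TAL than in Scd2f/f TAL, as did 49.6% of all genes, and Ddi1 lies within the span of Pdgfd. Whether distance from the cluster has any part in these ratios was not tested.

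**Figure D2:**
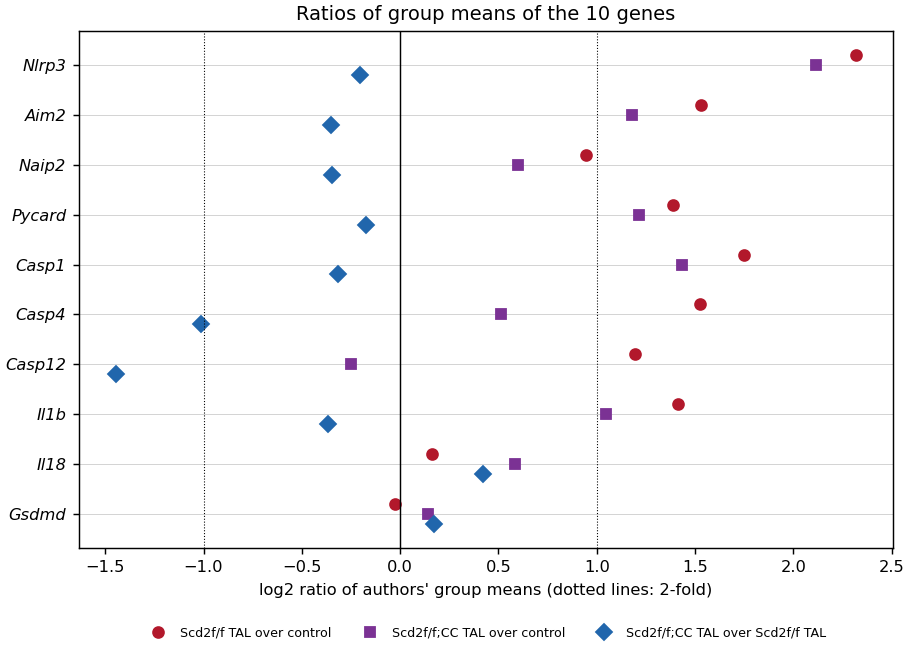
Log2 ratio of group means (horizontal axis) for each of the 10 genes, with red circles for Scd2f/f TAL over control, purple squares for Scd2f/f;CC TAL over control and blue diamonds for Scd2f/f;CC TAL over Scd2f/f TAL. Blue diamonds at -1 or below belong to Casp4 and Casp12, and the other 8 lie between -0.37 and 0.42.

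Among the sensors, Nlrp3 had the largest ratio of the 10 genes. NLRP3 responds to potassium efflux, crystals and damaged organelles. The gene (chromosome 11, 59541568 to 59566956, plus strand) had a mean of 0.277 in control, 1.38 in Scd2f/f TAL and 1.20 in TAL of Scd2f/f;CC mice. It was 4.98-fold higher in Scd2f/f TAL than in control and 4.33-fold higher in Scd2f/f;CC TAL than in control, with a ratio of 0.870 between the treated groups. The higher mean of Nlrp3 was thus found in both treated groups.

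Aim2, whose product binds double-stranded DNA in the cytosol, lies on chromosome 1 from 173350879 to 173466040 on the plus strand. Its means were 0.391 in control, 1.13 in Scd2f/f TAL and 0.887 in TAL of Scd2f/f;CC mice. The ratio to control was 2.89 in Scd2f/f TAL and 2.27 in TAL of Scd2f/f;CC mice. Aim2 had a ratio of 0.785 between the treated groups, nearer to that of Casp1 than to that of Casp4 or Casp12.

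Naip2, a sensor of parts of bacterial secretion systems that works with NLRC4, had the highest level per kb of exon of the 3 sensors, 1.33 normalized counts per kb in Scd2f/f TAL. Its means were 3.35 in control, 6.45 in Scd2f/f TAL and 5.07 in TAL of Scd2f/f;CC mice, a ratio of 1.93 with DEN and WAD, just short of 2-fold, and of 0.786 between the treated groups. Naip2 lies on the minus strand of chromosome 13 (100144063 to 100202092) among near-identical copies, and 19.1% of its exon sequences of 50 bases also occur in another gene, mostly Naip1. Its paralogs Naip1, Naip5 and Naip6 share 31.5%, 36.9% and 21.5% of theirs, so the split of reads among these 4 genes is uncertain. Naip1 had a ratio to control of 3.47, Naip5 of 2.18 and Naip6 of 1.83 in Scd2f/f TAL, all in the direction of Naip2. Between the treated groups, Naip5 (0.758) was lower like Naip2, and Naip1 (1.11) and Naip6 (1.10) were slightly higher.

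The adaptor gene Pycard (chromosome 7, 127989708 to 127993867, minus strand) had means of 0.638 in control, 1.67 in Scd2f/f TAL and 1.48 in TAL of Scd2f/f;CC mice. It was 2.62-fold higher in Scd2f/f TAL than in control and 2.32-fold higher in Scd2f/f;CC TAL than in control, with a ratio of 0.886 between the treated groups. Gm45205, an annotated transcript on the opposite strand, overlaps 12.8% of the exon bases of Pycard, and the library kit does not keep strand, so reads from the overlap cannot be told apart.

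The effector and cytokine genes did not share a direction. Gsdmd, the gene of the pore protein that caspase-1 and caspase-11 cut, had means of 9.87 in control, 9.68 in Scd2f/f TAL and 10.9 in TAL of Scd2f/f;CC mice, with ratios of 0.981 and 1.13. It lies on chromosome 15 from 75862327 to 75867408 on the plus strand. Gsdmd therefore stayed within 2-fold in every comparison, unlike the caspases that cut its product.

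Il1b, the gene of IL-1beta, which is transcribed when macrophages are primed, had means of 0.920 in control, 2.45 in Scd2f/f TAL and 1.90 in TAL of Scd2f/f;CC mice. Il1b was 2.66-fold higher in Scd2f/f TAL than in control, with a ratio of 0.776 between the treated groups, and it lies on the minus strand of chromosome 2 (129364570 to 129371139). The other cytokine gene, Il18 (chromosome 9, 50554827 to 50581840, plus strand), which unlike Il1b is known to be expressed without priming, had means of 3.97, 4.45 and 5.95 in control, Scd2f/f TAL and Scd2f/f;CC TAL. Il18 thus had a ratio of 1.12 with DEN and WAD, the smallest above 1 among the 10 genes, and of 1.34 in Scd2f/f;CC TAL over Scd2f/f TAL, the largest. The cytokine genes therefore differed in direction between the treated groups.

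Dividing each mean by the length of the gene's exons gives a rough scale for levels of different genes. The length was that of the exons of all annotated transcripts together, 3800 bases for Pycard and 1497 for Casp1. Genes with long stretches that few transcripts use are therefore set too low, and which transcripts were used was not tested. On this scale of normalized counts per kb, Gsdmd (4.15 in control, 4.07 in Scd2f/f TAL and 4.59 in TAL of Scd2f/f;CC mice) and Il18 (3.85, 4.32 and 5.77) were the most abundant of the 10 transcripts in every group. Casp1 came next in Scd2f/f TAL at 1.43 per kb, followed by Naip2 at 1.33 and Il1b at 1.28. Casp12 stood at 0.661, Casp4 at 0.571 and Pycard at 0.439. Nlrp3 (0.340) and Aim2 (0.323) were the least abundant per kb in Scd2f/f TAL. Without a spread between mice, neighbours in this order cannot be told apart. The transcripts with the highest level per kb, Gsdmd and Il18, were those with the ratios nearest to 1 between Scd2f/f TAL and control.

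The wider pathway was followed in lists of 84 further gene names, of which 66 were found in the table. Of these, 28 (42.4%) were at least 2-fold higher in Scd2f/f TAL than in control, beside 9.37% of all genes. In the other direction, 0 were 2-fold lower, beside 4.69% of all genes, and the median log2 ratio was 0.86. The counts of the single lists below stand beside the same shares of all genes. Between the treated groups 1 was at least 2-fold higher in Scd2f/f;CC TAL (Serpinb1a) and 2 were at least 2-fold lower (Cd14 and Tnfaip3). These are 1.52% and 3.03% of the 66, beside 1.82% and 4.07% of all genes, so neither share was above the background, and the median log2 ratio was -0.14. In Scd2f/f;CC TAL over control, 23 (34.8%) were 2-fold higher, beside 6.41% of all genes. In the same comparison 1 (1.52%) was 2-fold lower, beside 4.64% of all genes, so that share was not above the background. The gene was Il1r1, the IL-1 receptor, named here after its value was seen, with 66.7 in control and 28.3 in Scd2f/f;CC TAL.

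Guanylate binding proteins and immunity-related GTPases, which coat bacteria and their membranes and hand lipopolysaccharide to caspase-11, had the largest share. In Scd2f/f TAL, 9 of 14 were at least 2-fold higher than in control, among them Gbp5 (0.673 to 3.38, 5.02-fold), Gbp2 (4.60-fold), Gbp6 (4.64 to 21.3, 4.59-fold) and Gbp10 (4.00-fold). Gbp3 (3.58-fold), Gm12250 (3.16-fold), Gbp9 (2.86-fold), Gbp8 (2.76-fold) and Gbp4 (2.38-fold) made up the rest. The spans of Gbp4, Gbp8 and Gbp9 overlap on the minus strand of chromosome 5, and how far reads are shared among the genes of this list was not tested. Between the treated groups 0 of the 14 passed 2-fold and the ratios ran from 0.709 to 1.43, so these genes did not show the lower means of Casp4.

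Priming genes of Toll-like receptor and NF-kappaB signalling were 2-fold higher in Scd2f/f TAL than in control in 7 of 16 cases. Relb, an NF-kappaB subunit, was 4.41-fold higher, and Nfkb2, the subunit that pairs with it, 2.08-fold. Tlr2 was 2.06-fold higher, Irak3, an inhibitor of the pathway, 2.34-fold, and Nfkbiz, a nuclear cofactor, 2.32-fold. Cd14, the co-receptor for lipopolysaccharide, had means of 0.862, 3.26 and 1.41 in control, Scd2f/f TAL and Scd2f/f;CC TAL, 3.78-fold higher with DEN and WAD and 2.31-fold lower in Scd2f/f;CC TAL. Tnfaip3, the gene of the NF-kappaB inhibitor A20, had means of 1.78, 7.70 and 2.92, 4.33-fold higher and then 2.64-fold lower. Of the 16 priming genes, 14 had a ratio below 1 between the treated groups, beside 49.6% of all genes.

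In the IL-1 family and its receptors, 3 of 8 genes found were at least 2-fold higher in Scd2f/f TAL than in control. Il1rn, the IL-1 receptor antagonist, had means of 0.526 in control, 5.27 in Scd2f/f TAL and 2.68 in TAL of Scd2f/f;CC mice, a 10.0-fold higher level and then a ratio of 0.509, just short of 2-fold lower. Il18bp, which binds and neutralizes IL-18, had means of 2.69, 10.4 and 6.94, and Il1a had 0.947, 2.40 and 2.24. The secreted antagonists Il1rn and Il18bp therefore had larger ratios to control in Scd2f/f TAL, 10.0 and 3.87, than the cytokine genes Il1b and Il18, 2.66 and 1.12.

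Among other sensors, 5 of 14 were at least 2-fold higher in Scd2f/f TAL than in control, Naip5 and, with means under 1 in both of these groups, Naip1, Mefv, Nod2 and Nlrc4 (the last 3 chosen after their values were seen), and none was 2-fold higher or lower between the treated groups. Among activators and regulators, 4 of 12 were 2-fold higher in Scd2f/f TAL, among them P2rx7, the ATP-gated channel upstream of NLRP3 (1.08, 2.58 and 1.69 in control, Scd2f/f TAL and Scd2f/f;CC TAL), and Trim30a (3.45, 8.0 and 7.72). Serpinb1a, an inhibitor of neutrophil proteases, was the exception in the comparison of treated groups, with 1.77, 1.97 and 4.35, a 2.21-fold higher mean in Scd2f/f;CC TAL. Of 11 gene names listed for other pore and membrane-rupture proteins 2 were found, Dfna5 (gasdermin E) and Ninj1, named as the only ones found. Neither passed 2-fold, and the name Gsdme in that list stands for the same gene as Dfna5.

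**Figure D3:**
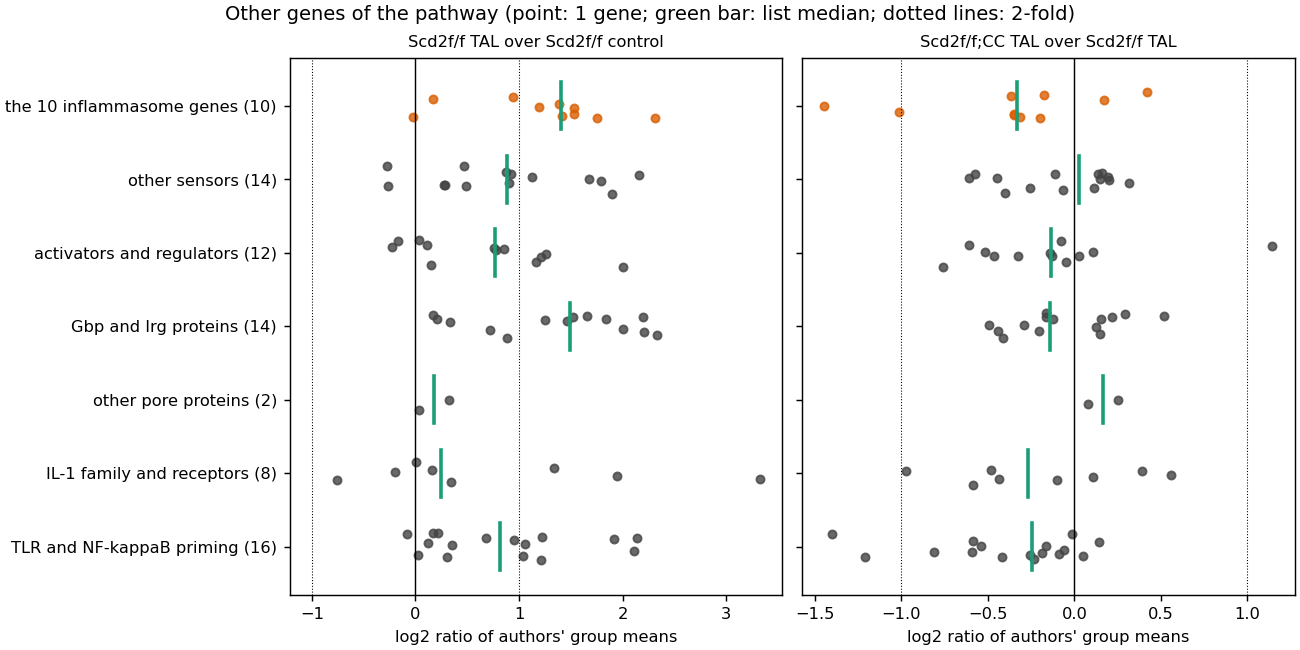
Log2 ratio of group means (horizontal axes) for the 10 inflammasome genes (orange) and the genes found of 6 lists of the same pathway (dark points, 1 per gene, number found in brackets), Scd2f/f TAL over control on the left and Scd2f/f;CC TAL over Scd2f/f TAL on the right. Green bars are list medians and dotted lines mark 2-fold; 9 of 14 Gbp and Irg genes lie past 2-fold on the left and 0 on the right.

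Markers of immune cells were also higher after DEN and WAD. In whole liver RNA, fewer cells of a type and less RNA per cell cannot be told apart. The counts of all marker lists stand beside shares of all genes. These were 9.37% at least 2-fold higher and 4.69% lower in Scd2f/f TAL than in control, and 4.07% lower in Scd2f/f;CC TAL than in Scd2f/f TAL. Of 17 Kupffer cell and macrophage markers, 17 were found and 17 were at least 2-fold higher in Scd2f/f TAL than in control. Their ratios ran from 2.49 to 95.8, and their summed mean was 146 in control, 594 in Scd2f/f TAL and 458 in TAL of Scd2f/f;CC mice. Adgre1 (F4/80) had means of 5.70, 19.0 and 17.7, and Csf1r 17.0, 60.8 and 53.5. The ratio of the summed macrophage markers was 4.07 with DEN and WAD and 0.771 between the treated groups, where 4 of 17 were at least 2-fold lower (Cx3cr1, Itgax, Trem2 and Gpnmb, chosen after their values were seen). The 17 ratios between the treated groups ran from 0.0710 to 1.23, and 2 of them lay above 1, Clec4f (1.01) and Timd4 (1.23), also named after their values were seen. The summed ratio thus covers markers that differed in direction. The study's text uses Itgax to mark dendritic cells.

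The other immune lists given here each had a higher summed mean in Scd2f/f TAL than in control. Neutrophil markers (4 of 7 found, 4 at least 2-fold higher in Scd2f/f TAL than in control) summed to 1.18 in control, 4.74 in Scd2f/f TAL and 3.68 in TAL of Scd2f/f;CC mice, with single ratios from 3.06 to 5.46 with DEN and WAD and from 0.463 to 0.820 between the treated groups. Dendritic cell markers (5 of 6 found, 4 higher) summed to 1.74, 3.47 and 2.29, with single ratios from 1.44 to 4.32 and from 0.503 to 0.777. T and NK cell markers (7 of 8 found, 5 higher) summed to 1.51, 4.72 and 2.83, with single ratios from 1.26 to 5.53 and from 0.288 to 1.08. Of the first marker of each list, S100a8 had means of 0.210, 0.871 and 0.698 in the order used above, Flt3 0.231, 0.573 and 0.288, and Cd3e 0.226, 1.25 and 0.545. All 4 dendritic cell markers counted as higher had means under 1 in every group. So did most of the T and NK cell markers and some of the neutrophil markers counted as higher, so these ratios rest on low values.

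Markers of HSC and portal fibroblasts, the cells in which Cre is active, had the summed means 132 in control, 224 in Scd2f/f TAL and 129 in TAL of Scd2f/f;CC mice, a ratio of sums of 1.70 with DEN and WAD and of 0.574 between the treated groups. Of these 9 markers 3 were at least 2-fold higher in Scd2f/f TAL than in control, with single ratios from 0.774 to 4.18, and 5 were at least 2-fold lower in Scd2f/f;CC TAL than in Scd2f/f TAL, with single ratios from 0.230 to 0.842. Lrat, the first of them, had means of 15.0, 19.0 and 16.0. Cholangiocyte markers, 3 of 4 of them 2-fold lower in Scd2f/f;CC TAL than in Scd2f/f TAL, summed to 6.37, 8.04 and 4.31, with single ratios from 0.669 to 1.68 and from 0.205 to 0.700, and Krt19 had means of 0.746, 0.751 and 0.204. Liver endothelial markers, 2 of 7 of them 2-fold higher in Scd2f/f TAL than in control, summed to 110, 147 and 147, with single ratios from 0.989 to 2.54 and from 0.521 to 1.15, and Stab2 had means of 36.9, 42.8 and 45.9. Hepatocyte markers summed to 32860, 29530 and 33328, with single ratios from 0.363 to 1.01 and from 0.930 to 1.69, and with 1 of 7 (Tat) 2-fold lower in Scd2f/f TAL than in control. Alb, the gene of albumin and a defining hepatocyte gene, had means of 21300, 20900 and 22700. The ratios between the treated groups of Casp4, 0.495, and of Casp12, 0.367, each lay within the range of single markers of more than 1 of these cell types, macrophages and HSC among them. The part of these cell types in the ratios of the inflammasome genes was not tested.

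**Figure D4:**
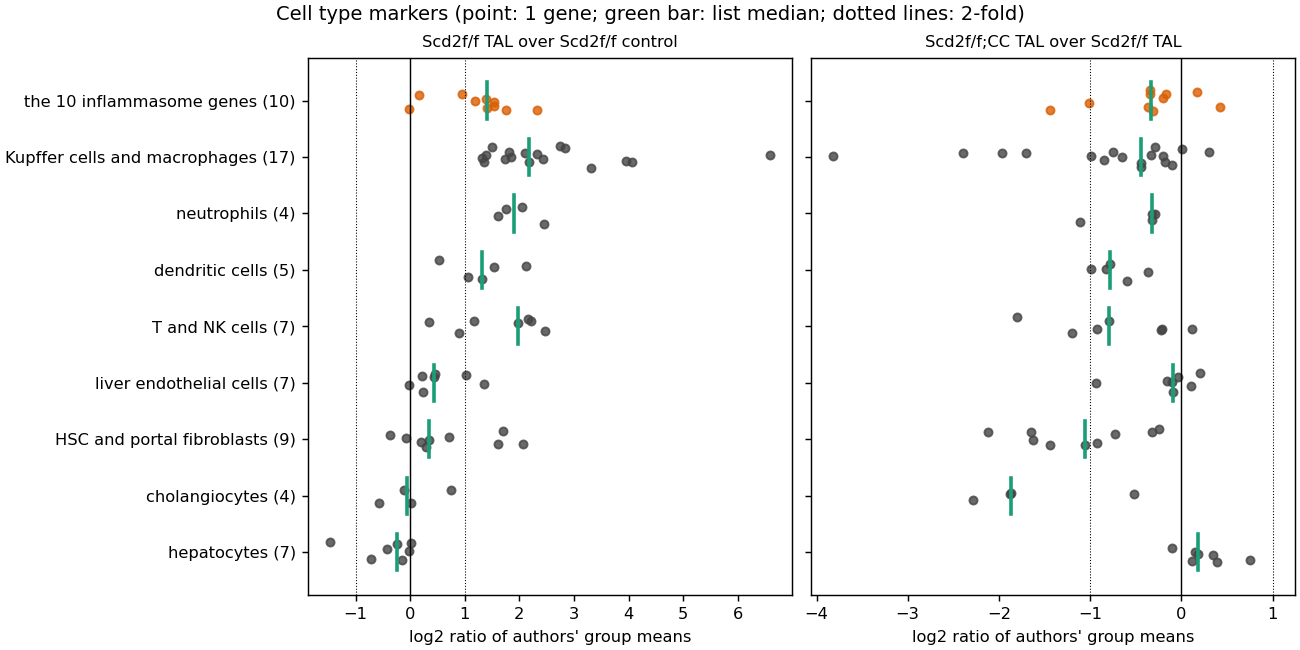
Log2 ratio of group means (horizontal axes) for the 10 inflammasome genes (orange) and for markers of 8 cell types (dark points, 1 per gene, number found in brackets), Scd2f/f TAL over control on the left and Scd2f/f;CC TAL over Scd2f/f TAL on the right. Green bars are list medians and dotted lines mark 2-fold; all 17 macrophage markers lie past 2-fold on the left, and all 9 HSC and portal fibroblast markers lie below 0 on the right.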

How the data were processed

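Polyadenylated RNA from 9 mouse livers was sequenced by the authors with TruSeq v2 libraries, which keep no strand, on a NextSeq instrument. Reads were quantified against Gencode M3 by the E/M method of Partek and normalized to the upper quartile, and the processing notes name STAR 2.6.1, Partek 6 and mm10. The deposited table holds, for each of 2 comparisons of the authors, a signal per group (the least-squares mean of the normalized counts, to 3 significant digits) and the authors' p-value, FDR, ratio and fold change, which were not used. The 3 columns of group means were used. The means of Scd2f/f TAL were identical in both comparisons for 16755 of 16755 genes, so Scd2f/f;CC TAL was also set against control. The p-values of the authors' Gene Specific Analysis are not printed here.

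Ratios of means were computed for every gene, without a pseudocount, and a ratio of at least 2 in either direction was counted. Depth per sample is unknown, so no interval is given. Exon lengths, shared stretches of 50 bases and overlaps came from GENCODE M21 on GRCm38, and promoter windows from RefSeq on GRCm38.p6. The members and lists were chosen with earlier results of these data known. A list of the pathway and a marker list are not reported here, for a reason other than their values. None of the genes of the pathway list passed 2-fold, so the shares given for the wider pathway are higher than they would be with it. Named genes were the 10 members, their near paralogs, and genes of pathway lists past 2-fold in either comparison with the treated Scd2f/f group and with a mean of at least 1; genes named outside this rule are marked as such. Of marker lists, counts, ranges and the first markers were given. Alternatives were fold limits of 1.5 and 3, a mean of at least 1, centring on the median gene, and pseudocounts of 0.1 and 1. Steps were tested on simulated data. The software was Python 3.11.15, NumPy 2.4.6, pandas 2.3.3 and Matplotlib 3.10.9.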

Additional observations from a re-analysis of the deposited data

How the results depend on the processing

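A fold limit, a minimum mean or a pseudocount cannot reverse the direction of a gene's ratio, so these say nothing about direction. Centring could, and it reversed none of the 10 ratios of Scd2f/f TAL to control. Between the treated groups its shift was 0. With a fold limit of 3, 2 of the 10 genes were counted higher in Scd2f/f TAL than in control (4.33% of all genes), 0 lower in Scd2f/f;CC TAL than in Scd2f/f TAL (1.30%) and 1 higher in Scd2f/f;CC TAL than in control (2.11%). With a pseudocount of 1, the counts were 0, 0 and 0 (2.82%, 0.507% and 1.58% of all genes), and the median log2 ratio to control in Scd2f/f TAL was 0.76, because most of these means are near 1 and a pseudocount of that size shrinks their ratios. With a pseudocount of 0.1, 1 gene, Casp12, was lower in Scd2f/f;CC TAL than in Scd2f/f TAL. The other counts stayed within 1.5 times of those reported with a fold limit of 1.5, a mean of at least 1, a pseudocount of 0.1 or centring, which shifted the log2 ratios by 0 to 0.0423. The authors' means carry no single samples, so leaving out a replicate was not possible. No paired analysis was possible because the columns are group means that carry no replicate numbers. Depth is unknown, and 6 of the 10 control means lie below 1 on the scale of normalized counts.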

Other observations

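Aim2 is the outermost member of a block of interferon-inducible genes on chromosome 1, the AIM2-like receptor family, some members of which bind DNA. The block was looked at after its values were seen. Of its 12 protein-coding genes in the table, 12 were at least 2-fold higher in Scd2f/f TAL than in control, beside 9.37% of all genes, with ratios from 2.12 to 5.22. Ifi205 had the largest ratio, with means of 0.603 in control, 3.15 in Scd2f/f TAL and 2.58 in TAL of Scd2f/f;CC mice. Ifi207 had 2.71, 8.73 and 4.91, Ifi204 had 4.22, 12.1 and 9.91, and Mndal had 3.45, 9.87 and 7.28. Cadm3, whose span overlaps that of Aim2, and Ackr1, which lies beside the block, belong to other families and had ratios of 1.48 and 1.16. Between the treated groups 12 of the 12 had a lower mean in Scd2f/f;CC TAL, beside 49.6% of all genes, with ratios from 0.562 to 0.942 and none past 2-fold. How far reads are shared among these related genes was not tested.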
